A study of Arabidopsis thaliana with 12 samples.

Results

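Warmth in white light was followed in whole seedlings of Arabidopsis thaliana, wild type Columbia 0, by RNA sequencing of polyA RNA. The warm group, Light_28C, spent the 10 h light period of day 4 in white light at 28 °C, and its control, Light_20C, spent the same 10 h in white light at 20 °C. Both groups came from 3-day-old plants raised at 22 °C in white light (100 µmol of photons, red/far-red 1.1), so neither stayed at its growth temperature. Each group had 3 biological replicates, taken when the light period ended, and these 6 libraries of the 12 in the series held between 3500325 and 4481869 reads in genes. Levels are log2 CPM, a gene's reads scaled by the total of its library, and all 21316 genes that reached a log2 value of 0 in at least 3 of the 12 libraries were compared, out of 33602 listed. The other 6 libraries, Shade_28C and Shade_20C with 3 replicates each, held seedlings given shade in place of white light at the same temperatures. They shared the estimate of spread and served to ask whether the response to warmth differed under shade.

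Plants read a mild rise in temperature through phytochrome B, which warmth switches off, through the evening complex protein ELF3 and through the transcription factor PIF4, and they respond with longer hypocotyls and petioles. Heat shock factors bind heat shock elements in promoters and switch on chaperones, the proteins that keep others folded. In the cold, CBF factors bind a short promoter element named CRT or DRE and switch on protective proteins of the COR, KIN and RD29 families.

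Both the shoot genes described below and root markers were detected in these whole seedlings. The root marker list, headed by the root beta-glucosidase PYK10 (AT3G09260), took 0.513, 0.516 and 0.510% of reads at 28 °C and 0.318, 0.436 and 0.408% at 20 °C. Of its 11 tested members 1 rose (PYK10, log2 change 0.45 ± 0.13, SE) and 1 fell (the nitrate transporter gene NRT2.1, AT1G08090, -2.22 ± 0.48). Each is 9.09% of the members, against 10.8% of all tested genes that rose and 4.8% that fell. No member rose with library medians subtracted, trimmed mean scaling, a constant prior variance or no filter on low values, or without replicate 2 of Light_28C or replicate 1 of Light_20C. None fell with a constant prior variance or when the library richest in 18S was left out of each group, and 2 fell without replicate 1 of Light_28C. Seed storage genes took 0.00589, 0.00236 and 0.000226% at 28 °C and 0.00230, 0.00248 and 0.000771% at 20 °C, and none of 10 tested members was called by limma (0 at an unadjusted p under 0.05). 18S ribosomal RNA took 1.11, 0.839 and 2.3% of reads at 28 °C and 0.535, 1.67 and 0.743% at 20 °C. The part of root tissue and of ribosomal RNA in the results below was not tested.

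At 28 °C, 2310 genes were higher and 1023 lower than at 20 °C (limma, Benjamini-Hochberg adjusted p under 0.05), which is 10.8% and 4.8% of the genes tested, or 15.6% together. Counts of list members throughout are read against these shares. Most changes were small: 454 of the rises and 265 of the falls reached 2-fold, and 32 rises and 21 falls reached a log2 change of 3. The values carry no scaling factor, and the median change of all tested genes was 0.16 on the log2 scale, so list medians are read against that figure. With trimmed mean scaling, which brought this median to 0.02, 1076 genes rose and 1416 fell, against the 2310 and 1023 above; all 1076 rises were among the 2310, and all 1023 falls were among the 1416. Subtracting library medians gave 983 rises and 1487 falls, and quantile normalization 1158 and 1356. The groups did not overlap for 3203 of the 3333 called genes (96.1%), nor for 6919 of all 21316 tested genes (32.5%). When the library richest in 18S was left out of each group, 1763 genes were called.

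**Figure D1:**
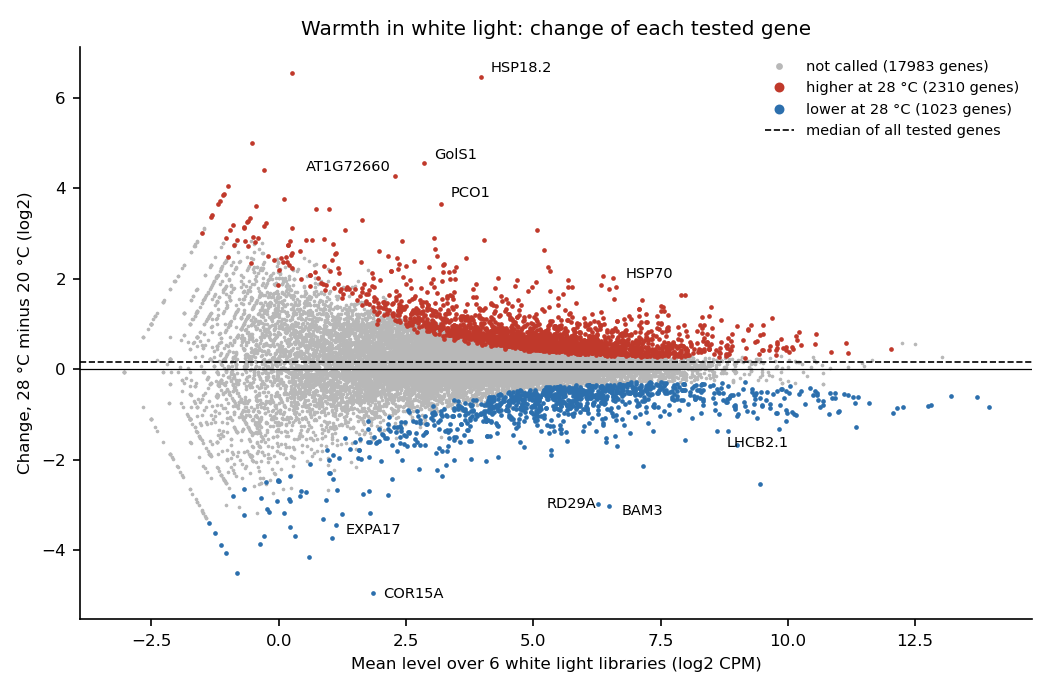
Change of each tested gene with warmth in white light (28 °C minus 20 °C, log2, vertical axis) against its mean level over the 6 white light libraries (log2 CPM, horizontal axis). Red points are the 2310 genes called higher and blue points the 1023 called lower; the dashed line is the median change of all genes, 0.16, and HSP18.2 and COR15A stand far from it at 6.46 and -4.95.

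Small heat shock proteins, which hold unfolding proteins in solution, included the largest rise among genes with reads in both groups. HSP18.2 (AT5G59720) had 650, 625 and 579 reads at 28 °C, against 13, 6 and 3 reads at 20 °C. All 3 warm libraries lay far above all 3 controls, with a log2 change of 6.46 ± 0.29 (SE, n = 3 per group; limma adjusted p = 2.2e-14). HSP22.0 (AT4G10250), made in the endoplasmic reticulum (ER), had 146 reads over the warm libraries and 0 reads over the controls, and so was at least 47.1-fold higher, taking 3 reads for the whole control group as the floor. AT5G51440, a gene of the HSP20 family, stood at 4.46, 4.49 and 4.63 log2 CPM at 28 °C and at 1.97, 2.70 and 2.40 at 20 °C, a change of 2.17 ± 0.32 (limma adjusted p = 3.0e-05). AT1G53540, of the same family, stood at 4.63, 4.58 and 4.26 log2 CPM at 28 °C and at 1.88, 2.54 and 0.36 at 20 °C; its rise of 2.90 ± 0.56 missed the threshold with a constant prior variance. In the list as a whole 9 of 16 tested members rose and 0 fell, with a median log2 change of 1.53, the same with HSP22.0 set at its bound. With library medians subtracted, quantile normalization or trimmed mean scaling 7 rose. The count was also 7 without the library richest in 18S of each group, and 6 with a constant prior variance.

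Large chaperones moved in the same direction with smaller changes: 19 of 27 rose and 0 fell, with a median of 0.61. HSP90.1 (AT5G52640), the heat-inducible cytosolic HSP90, stood at 6.51, 6.99 and 6.51 log2 CPM at 28 °C and 4.37, 4.99 and 4.75 at 20 °C, a rise of 1.97 ± 0.18 (limma adjusted p = 1.9e-08). HSP70 (AT3G12580), a heat-inducible member of the HSP70 family, stood at 7.28, 7.75 and 7.57 log2 CPM at 28 °C and 5.73, 5.78 and 5.62 at 20 °C, a rise of 1.82 ± 0.18. For both genes every warm library lay above every control. Chaperones of the organelles rose too, among them the mitochondrial CLPB4 (AT2G25140) by 1.4 ± 0.18 and HSP90.6 (AT3G07770) by 0.96 ± 0.14. Of the co-chaperones, which hand proteins between chaperones or set their activity, 8 of 15 rose and 0 fell; HOP3 (AT4G12400), which bridges HSP70 and HSP90, rose by 1.41 ± 0.17, and HSA32 (AT4G21320), needed to keep acquired heat tolerance, by 2.26 ± 0.40. In the ER, 9 of 21 chaperone and unfolded-protein genes rose, among them BIP1 (AT5G28540) by 0.68 ± 0.10 and the stress sensor bZIP28 (AT3G10800) by 0.78 ± 0.16. BIP3 (AT1G09080), the BiP gene that is induced by ER stress, was the 1 member that fell, at -0.72, -0.22 and 0.56 log2 CPM at 28 °C and 2.56, 2.21 and 1.72 at 20 °C; that call was lost without replicate 1 of either group. Of the 9 ER rises 5 held with trimmed mean scaling. Together the 4 chaperone lists took 0.968, 0.988 and 0.970% of reads at 28 °C, against 0.677, 0.688 and 0.692% at 20 °C, a difference far beyond the spread within either group (2-sided exact permutation p = 0.10, the smallest possible with 3 libraries in each group).

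Of 23 tested heat shock factors and other heat regulators 5 rose and 0 fell, with a median of 0.07. They were MBF1C (AT3G24500), a transcriptional co-activator of heat tolerance, at 2.02 ± 0.20; the class B factors HSFB1 (AT4G36990) at 1.07 ± 0.11, HSFB2A (AT5G62020) at 2.29 ± 0.38 and HSFB2B (AT4G11660) at 1.47 ± 0.32; and HSFA7A (AT3G51910) at 1.43 ± 0.27. The constitutive activator HSFA1A (AT4G17750) stood at 3.56, 2.86 and 3.77 log2 CPM at 28 °C and 2.72, 2.99 and 3.02 at 20 °C, and the groups overlapped. HSFA2 (AT2G26150), an inducible activator that sustains the response to strong heat, was low in all libraries, at 0.12, 0.14 and 0.94 log2 CPM at 28 °C and 0.92, 1.78 and 1.28 at 20 °C (change -0.92 ± 0.83, limma adjusted p = 0.50). The HSFB2B call was lost when the 18S-rich library of each group was left out.

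Other protective genes rose beside the chaperones. GolS1 (AT2G47180) makes galactinol, the donor for raffinose, and stood at 4.94, 5.38 and 5.06 log2 CPM at 28 °C and 0.01, 0.83 and 0.89 at 20 °C. It rose by 4.55 ± 0.33 (limma adjusted p = 3.4e-10), and every warm library lay above every control. Of the 5 tested genes of galactinol and raffinose synthesis or breakdown, DIN10 (AT5G20250) also rose, by 0.65 ± 0.12. APX2 (AT3G09640), a cytosolic ascorbate peroxidase known for its induction by heat and excess light, had 49 reads over the warm libraries and 0 over the controls, at least 15.8-fold higher against the same floor. In the list of 13 antioxidant enzymes and oxidases APX2 and the superoxide dismutase FSD1 (AT4G25100) rose, FSD1 by 0.55 ± 0.10, while the thylakoid peroxidase TAPX (AT1G77490) and the alternative oxidase AOX1A (AT3G22370) fell, with changes of -0.65 ± 0.14 and -0.62 ± 0.15. No member of that list fell with a constant prior variance, 1 fell without replicate 2 of Light_28C, and 4 rose after quantile normalization. Among the 12 largest rises of genes with a mean of at least 1 log2 CPM and no overlap between groups were AT1G72660 at 4.28 ± 0.42, annotated as a nucleoside triphosphate hydrolase, the glycine-rich protein gene AT2G05510 at 2.84 ± 0.49, and AT1G33055, AT4G23493, AT3G61330 and AT5G50335, given here by ID only, at between 2.67 and 3.3. PCO1 (AT5G15120), AT3G20395 and HRA1 (AT3G10040), also among them, are taken up with the comparison under shade.

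Promoters of 3 genes that rose are shown because each holds a perfect heat shock element of 3 units, a run in which the triplet GAA and its reverse complement TTC alternate with 2 free bases between them. The 250 bases before the annotated gene start were searched in the RefSeq TAIR10.1 genome, on both strands, and are written 5′ to 3′ on the strand of the gene with the element in capitals. They lie at chr2:19370479-19370728, minus strand (GolS1), chr1:19980049-19980298, plus strand (AT1G53540) and chr3:19264891-19265140, plus strand (HSFA7A).
GolS1: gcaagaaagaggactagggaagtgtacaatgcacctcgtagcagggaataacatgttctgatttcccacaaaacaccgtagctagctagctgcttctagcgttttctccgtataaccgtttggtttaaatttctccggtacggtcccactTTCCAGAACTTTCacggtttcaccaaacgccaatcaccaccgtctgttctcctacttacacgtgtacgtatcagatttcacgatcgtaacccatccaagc
AT1G53540: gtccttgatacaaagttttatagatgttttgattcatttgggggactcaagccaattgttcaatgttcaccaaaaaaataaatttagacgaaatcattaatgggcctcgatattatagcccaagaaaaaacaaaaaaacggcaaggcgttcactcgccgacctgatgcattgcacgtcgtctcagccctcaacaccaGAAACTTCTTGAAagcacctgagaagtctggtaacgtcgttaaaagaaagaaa
HSFA7A: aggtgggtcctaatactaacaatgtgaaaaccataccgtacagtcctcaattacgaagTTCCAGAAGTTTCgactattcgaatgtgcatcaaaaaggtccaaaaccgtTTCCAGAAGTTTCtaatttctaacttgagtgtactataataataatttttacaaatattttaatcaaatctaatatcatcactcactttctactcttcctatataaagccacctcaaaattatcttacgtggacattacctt
The element begins 100 bases before the start in GolS1, 53 bases before it in AT1G53540 and occurs at 142 and 192 bases in HSFA7A. It was found before 85 of 21134 tested genes (0.402%), 17 of 2294 genes that rose (0.741%) and 3 of 1021 that fell (0.294%). Its 2-unit core GAANNTTC, which every 3-unit element contains, is common, at 9.26% of all promoters, 8.89% of those that rose and 9.11% of those that fell. The 3-unit element was also found in the window of HSFA2, which was not called, and it stood before 3 of 23 heat regulators, of which 1 rose, before 2 of 16 small heat shock protein genes, of which 1 rose, and before 0 of 27 large chaperone genes. Neither form was found in the window of HSP18.2, and no share was tested.

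Cold-regulated genes formed the opposite group. Of 20 genes for protective proteins of cold-treated plants 13 fell and 1 rose, with a median log2 change of -0.73. COR15A (AT2G42540), a chloroplast protein that guards membranes in the cold, stood at 2.0, -0.70 and -3.14 log2 CPM at 28 °C, the last without a read, and at 4.00, 3.98 and 5.03 at 20 °C. The 28 °C libraries differed widely among themselves but all lay below the controls, and the change of -4.95 ± 0.68 (limma adjusted p = 9.7e-06) has an uncertain size. RD29A (AT5G52310), a hydrophilic protein induced by cold and drying, stood at 4.94, 4.46 and 4.95 log2 CPM at 28 °C and 7.65, 7.81 and 7.82 at 20 °C, a change of -2.98 ± 0.14 (limma adjusted p = 2.2e-14). KIN1 (AT5G15960) and KIN2 (AT5G15970), small cold-induced proteins whose near-identical sequences may share reads, changed by -1.90 ± 0.14 and -1.57 ± 0.11. The membrane proteins COR413-PM1 (AT2G15970) and COR413IM1 (AT1G29395) changed by -1.09 ± 0.10 and -1.48 ± 0.14. RCI2B (AT3G05890) was the member that rose, by 0.85 ± 0.24, but no member rose with library medians subtracted, with a constant prior variance, without replicate 2 of Light_28C, without replicate 1 or 2 of Light_20C, or without the 18S-rich library of each group.

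The CBF factors themselves had too few reads to follow. CBF1 (AT4G25490) had 0 reads over the 28 °C libraries and 6 over those at 20 °C, CBF3 (AT4G25480) had 0 and 9, and among 8 tested CBF factors and regulators none was called by limma (0 at an unadjusted p under 0.05). Of these 8, 1 fell with library medians subtracted, quantile normalization or trimmed mean scaling. Fatty acid desaturases and other membrane lipid enzymes divided: 5 of 11 fell and 2 rose. With library medians subtracted 8 fell, with trimmed mean or quantile scaling 7, and with a constant prior variance 3. The chloroplast enzymes FAD8 (AT5G05580), FAD7 and FAD4 (AT4G27030) and the desaturase ADS2 (AT2G31360) fell, FAD8 at 5.72, 5.56 and 4.80 log2 CPM at 28 °C and 6.67, 6.49 and 6.70 at 20 °C (-1.26 ± 0.18), as did SFR2 (AT3G06510), a freezing-tolerance enzyme of the chloroplast envelope. FAD2 (AT3G12120), the main desaturase of the ER, rose by 0.60 ± 0.10, and ADS1 (AT1G06080) rose at 3.75, 4.32 and 5.17 log2 CPM at 28 °C and 1.79, 2.75 and 2.24 at 20 °C (2.15 ± 0.26).

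The CRT or DRE core, CCGAC, is shown for COR15A and RD29A because these genes fell most in the cold list. The windows, searched and written as above, lie at chr2:17712331-17712580, minus strand (COR15A) and chr5:21240467-21240716, plus strand (RD29A), with CCGAC or its reverse complement in capitals.
COR15A: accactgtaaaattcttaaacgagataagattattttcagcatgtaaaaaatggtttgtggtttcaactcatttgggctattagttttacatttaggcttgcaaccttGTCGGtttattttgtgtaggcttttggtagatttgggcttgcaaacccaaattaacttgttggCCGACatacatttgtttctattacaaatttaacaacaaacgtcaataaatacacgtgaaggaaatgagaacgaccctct
RD29A: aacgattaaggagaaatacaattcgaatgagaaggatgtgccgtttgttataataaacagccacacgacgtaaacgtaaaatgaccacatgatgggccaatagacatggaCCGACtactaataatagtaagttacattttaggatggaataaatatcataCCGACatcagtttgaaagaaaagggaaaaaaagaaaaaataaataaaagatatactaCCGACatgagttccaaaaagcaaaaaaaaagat
COR15A holds 2 matches and RD29A 3. The core was present before 7 of the 20 cold genes (35%) and 5 of the 14 of these that were called (35.7%). It stood before 12.7% of all tested promoters, 12.0% of those of genes that rose and 13.0% of those of genes that fell. It was also found in lists without a fall, before 4 of 16 small heat shock protein genes (25%), 4 of the 9 of these that rose (44.4%) and 2 of 5 raffinose genes (40%). KIN1, KIN2 and COR413IM1 held no match in this window. These shares are counts without a test.

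**Figure D2:**
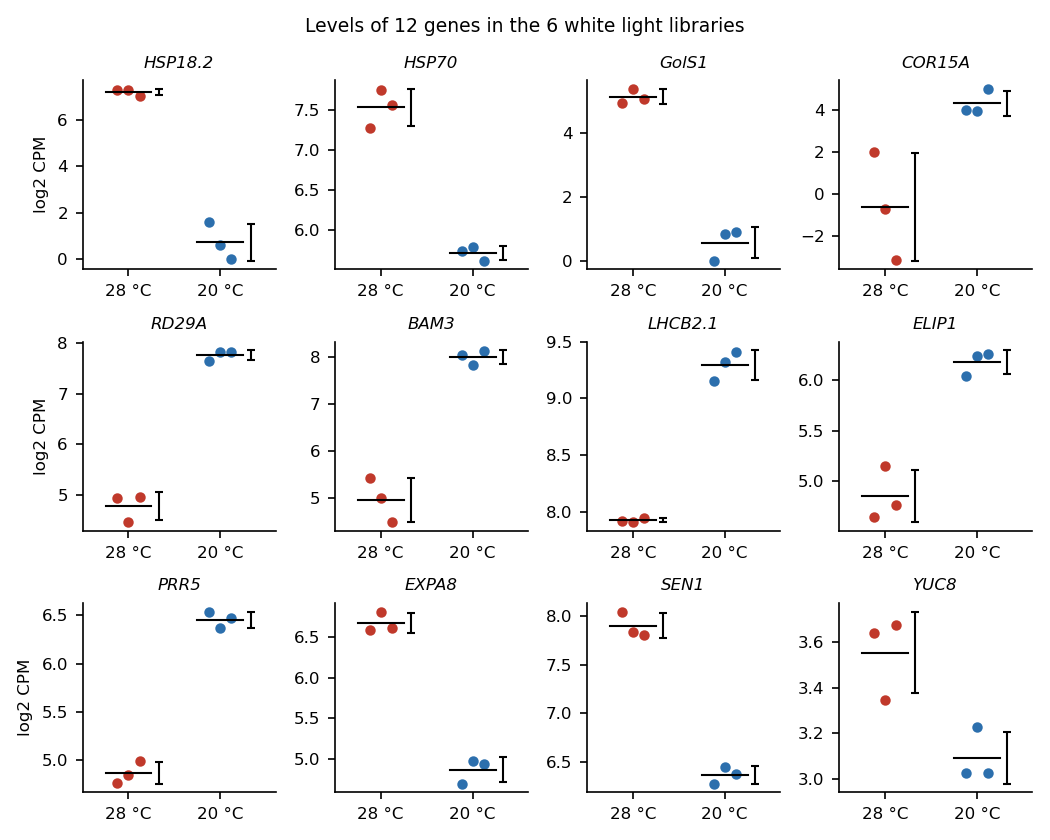
Level (log2 CPM, vertical axes, each with its own range) of 12 genes in the 3 libraries at 28 °C (red) and the 3 at 20 °C (blue); horizontal bars are means and the error bars beside them are SD. Groups are apart in every panel; COR15A spreads from -3.14 to 2.0 at 28 °C, and YUC8, at 3.64, 3.35 and 3.68 at 28 °C and 3.03, 3.23 and 3.02 at 20 °C, was not called.

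Nuclear photosynthesis genes fell together. Of 20 light-harvesting antenna genes 19 fell and 0 rose, of 24 photosystem subunits 23 fell and 0 rose, and of 20 genes for Rubisco small subunits and the Calvin cycle 17 fell and 0 rose, with median log2 changes of -0.83, -0.81 and -0.72. LHCB2.1 (AT2G05100), an antenna protein of photosystem II that moves between photosystems, stood at 7.92, 7.91 and 7.94 log2 CPM at 28 °C and 9.15, 9.32 and 9.41 at 20 °C, a change of -1.37 ± 0.10. LHCB1.4 (AT2G34430) had the largest fall of the antenna list, at 8.46, 8.34 and 7.77 log2 CPM at 28 °C and 10.68, 10.71 and 10.77 at 20 °C (-2.53 ± 0.12, limma adjusted p = 7.8e-14). The LHCB1 genes and the Rubisco small subunit genes have near-identical copies, so the level of a single copy is uncertain. PSAO (AT1G08380), a small subunit of photosystem I, changed by -1.14 ± 0.11, the Calvin cycle regulator CP12-2 (AT3G62410) by -1.22 ± 0.13 and the aldolase FBA1 (AT2G21330) by -1.09 ± 0.13.

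Antenna genes took 2.72, 2.56 and 2.25% of all reads at 28 °C, against 4.21, 4.27 and 4.51% at 20 °C. Rubisco and Calvin cycle genes took 5.78, 5.06 and 3.85% at 28 °C, against 8.51, 7.97 and 7.5% at 20 °C. All 3 lists together took 9.28 ± 1.52% at 28 °C and 15.5 ± 0.372% at 20 °C (means ± SD of 3 libraries). The exact permutation test, 2-sided, gave p = 0.10, its lowest possible value here, and the 28 °C libraries lay below every control. The lowest share, 7.65%, was in replicate 3 of Light_28C, which also had the most 18S RNA of the 6 libraries; without it and the control richest in 18S, 19 antenna, 23 photosystem and 14 carbon fixation genes fell. In whole seedlings fewer green cells and less RNA per cell cannot be told apart. After quantile normalization 13 antenna, 19 photosystem and 13 carbon fixation genes fell. Of 64 tested plastid-encoded genes 2 rose and 0 fell, or 1 rose without replicate 3 of Light_28C and 4 without replicate 3 of Light_20C. Without the 18S-rich library of each group 1 rose and 1 fell. PolyA selection removes most plastid RNA, so these counts say little of its level.

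**Figure D3:**
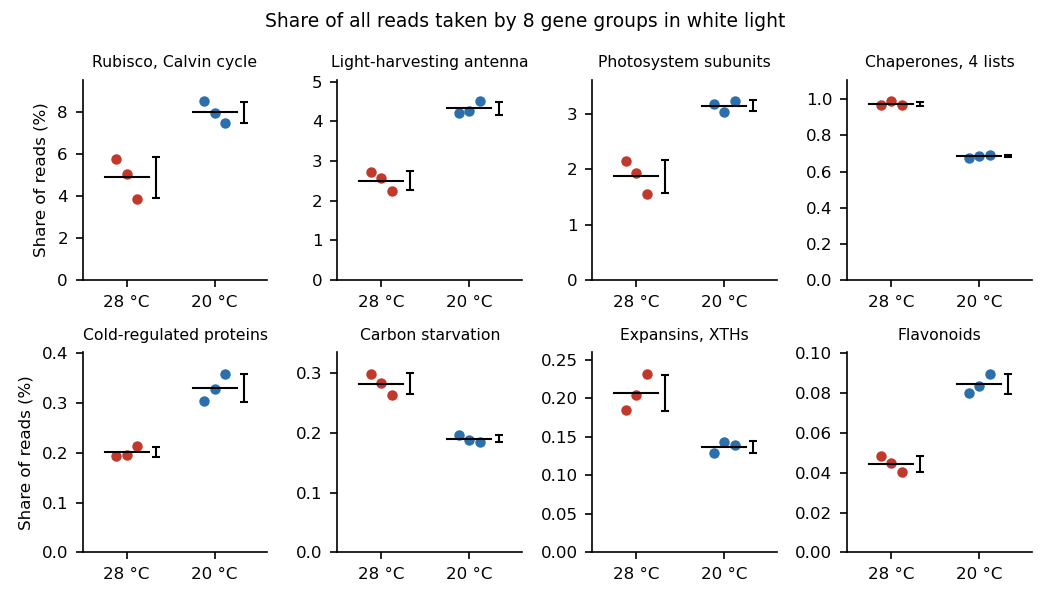
Share of all reads (percent, vertical axes from 0) taken by 8 gene groups in the 3 libraries at 28 °C (red) and the 3 at 20 °C (blue) of white light; horizontal bars are means and the error bars beside them SD. The 28 °C libraries lie below those at 20 °C for the photosynthesis, cold and flavonoid groups and above them for the chaperone, carbon starvation and cell wall groups.

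Chlorophyll synthesis moved less. Of 18 tested genes 4 fell and 1 rose, or 10 and 1 with trimmed mean scaling: the fallen genes were the greening factor GLK2 (AT5G44190), at -1.07 ± 0.17, and the enzymes CHLH, CRD1 and CHLI1. PORB (AT4G27440), which reduces protochlorophyllide in the light, stood at 9.80, 9.94 and 10.29 log2 CPM at 28 °C and 8.97, 9.08 and 9.02 at 20 °C, a rise of 0.99 ± 0.11. Of 10 photoprotection genes 7 fell, among them ELIP1 (AT3G22840), an early light-induced protein, at -1.32 ± 0.19 and the zeaxanthin epoxidase gene ZEP (AT5G67030) at -0.98 ± 0.11. Of 20 flavonoid and anthocyanin genes 13 fell and 0 rose, with a median of -1.16. CHS (AT5G13930), chalcone synthase, the entry enzyme of the pathway, stood at 7.80, 7.75 and 7.46 log2 CPM at 28 °C and 8.34, 8.54 and 8.41 at 20 °C (-0.76 ± 0.13), and the repressor gene MYBL2 (AT1G71030) changed by -2.03 ± 0.26. The flavonoid count was 8 with a constant prior variance or without replicate 2 of Light_28C, and 6 when the 18S-rich library of each group was left out.

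Carbon starvation genes rose: 15 of 21 were higher and 0 lower, with a median of 0.55, and 7 rose with a constant prior variance. SEN1 (AT4G35770), a marker of dark-induced senescence, stood at 8.05, 7.84 and 7.81 log2 CPM at 28 °C and 6.27, 6.45 and 6.37 at 20 °C, a rise of 1.54 ± 0.15. DRM1 (AT1G28330), a dormancy-associated gene, rose by 0.95 ± 0.11, TPS11 (AT2G18700), a class II trehalose phosphate synthase, by 1.05 ± 0.14, and BCAT2 (AT1G10070), which breaks down branched-chain amino acids, by 1.44 ± 0.21. Among 15 genes of starch breakdown, 6 were lower and 2 higher. Only 1 was higher under each of the 3 other scalings and with a constant prior variance. The same count of 1 was found without replicate 2 of Light_28C, replicate 1 or 2 of Light_20C or the 18S-rich library of each group. BAM3 (AT4G17090), the main beta-amylase of the leaf chloroplast, stood at 5.43, 5.00 and 4.49 log2 CPM at 28 °C and 8.04, 7.84 and 8.12 at 20 °C, a change of -3.03 ± 0.17 (limma adjusted p = 1.8e-12). BAM9 (AT5G18670), a beta-amylase relative without catalytic activity, rose by 0.83 ± 0.15, and the cytosolic enzymes PHS2 (AT3G46970) and DPE2 (AT2G40840), which handle the exported maltose, changed by -0.99 ± 0.10 and -0.64 ± 0.10.

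**Figure D4:**
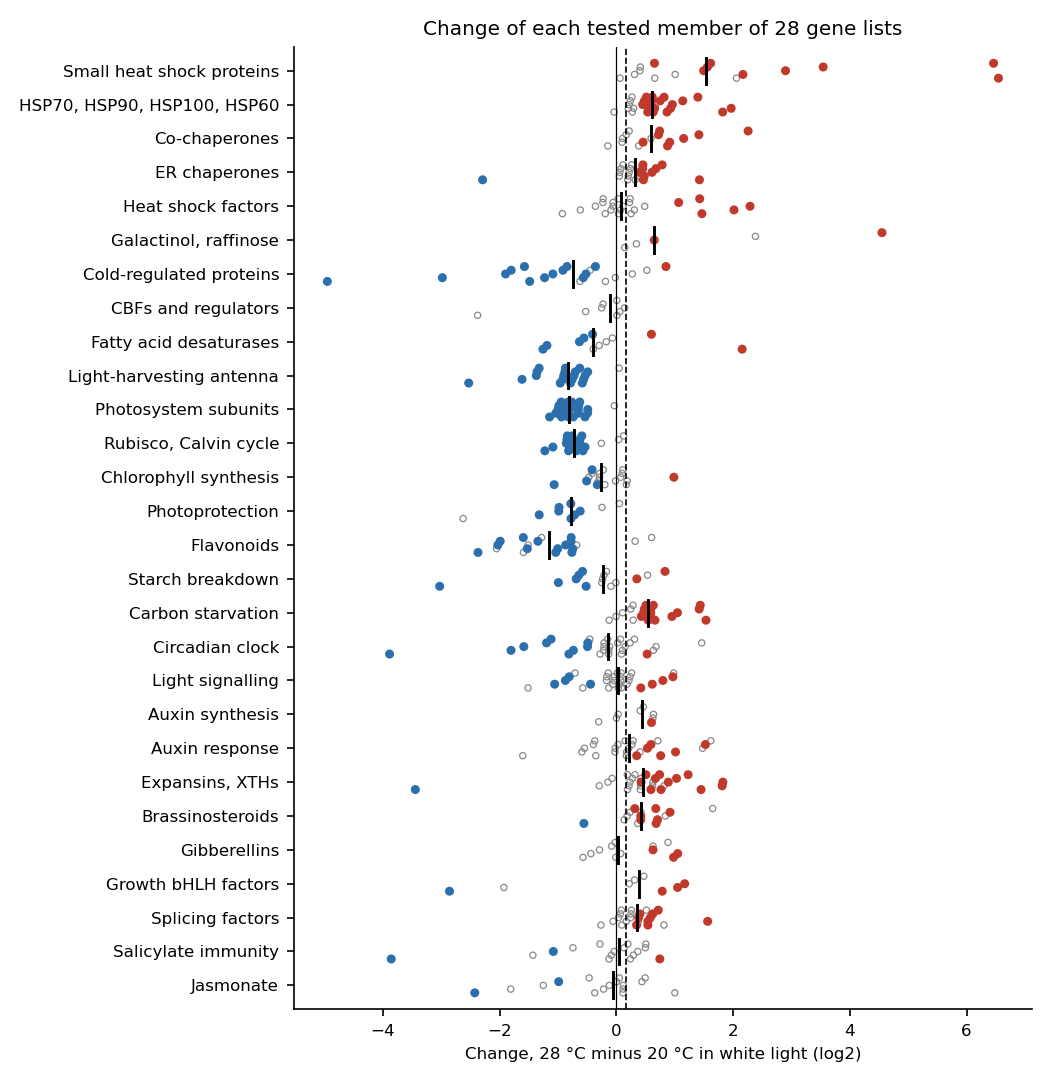
Log2 change with warmth in white light (28 °C minus 20 °C, horizontal axis) of each tested member of 28 gene lists, 1 list per row. Filled red and blue points are members called higher and lower, open points were not called, black ticks are list medians and the dashed line is the median of all tested genes, 0.16; antenna, photosystem and carbon fixation genes form compact groups near -0.8, while small heat shock proteins reach a fitted 6.55 for HSP22.0, a value that rests on controls without a read.

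Of 29 tested clock genes 9 fell and 1 rose at the end of the day. The single rise, that of BOA (AT5G59570), was lost under all 3 other scalings, with a constant prior variance and in 7 of the other alternatives. PRR5 (AT5G24470), a repressor of morning genes that peaks in the afternoon, stood at 4.77, 4.85 and 4.99 log2 CPM at 28 °C and 6.53, 6.37 and 6.47 at 20 °C, a change of -1.59 ± 0.13 (limma adjusted p = 1.4e-09). ELF4 (AT2G40080), of the evening complex, changed by -1.12 ± 0.11, and the blue light receptor FKF1 (AT1G68050), which times flowering, by -0.81 ± 0.12. ELF3 (AT2G25930), the temperature-sensing member of the evening complex, stood at 6.93, 6.81 and 6.88 log2 CPM at 28 °C and 6.82, 6.76 and 6.77 at 20 °C, and the groups overlapped. With 1 time point, a change in level and a change in phase cannot be told apart. The promoter of PRR5 is shown for its evening element, AAAATATCT, a site bound by morning factors of the clock; the window lies at chr5:8358547-8358796, minus strand, with the reverse complement of the element in capitals.
PRR5: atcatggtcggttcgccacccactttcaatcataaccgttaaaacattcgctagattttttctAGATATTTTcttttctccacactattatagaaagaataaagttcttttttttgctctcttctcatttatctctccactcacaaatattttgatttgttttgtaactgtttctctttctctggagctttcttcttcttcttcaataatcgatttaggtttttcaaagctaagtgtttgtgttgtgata
The element was present before 60 of 1021 genes that fell (5.88%) and 22 of the 264 that fell at least 2-fold (8.33%), against 46 of 2294 that rose (2.01%) and 2.48% of all tested promoters; no share was tested.

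Of 30 light signalling genes 4 rose and 4 fell, 13.3% in each direction, against 10.8% and 4.8% of all tested genes. With library medians subtracted 2 rose and 6 fell, and with quantile normalization or trimmed mean scaling 3 rose and 5 fell. PIF4 (AT2G43010), the growth factor at the centre of the response to warmth, stood at 6.0, 5.75 and 5.62 log2 CPM at 28 °C and 5.53, 5.92 and 5.81 at 20 °C (0.04 ± 0.14, limma adjusted p = 0.90), and PIF7 (AT5G61270), a related factor, at 3.83, 3.66 and 3.75 at 28 °C and 4.00, 3.58 and 3.76 at 20 °C. Both sets of groups overlapped. PHYB (AT2G18790), phytochrome B, stood at 5.62, 5.49 and 5.84 log2 CPM at 28 °C and 6.19, 6.07 and 6.02 at 20 °C, a change of -0.44 ± 0.12 that missed the threshold without replicate 2 of Light_28C. PHYA (AT1G09570), the far-red receptor, stood at 8.50, 8.64 and 9.15 log2 CPM at 28 °C and 7.75, 7.89 and 7.75 at 20 °C, a rise of 0.97 ± 0.12. PIF3 (AT1G09530) rose by 0.80 ± 0.15, and SPA1 (AT2G46340) and SPA3 (AT3G15354), partners of the light repressor COP1, changed by -0.81 ± 0.15 and -1.06 ± 0.20. HY5 (AT5G11260), the factor that promotes greening, changed by -0.71 ± 0.27 (limma adjusted p = 0.082) and passed the threshold with each of the 3 other scalings. Of 8 tested B-box factors 1 rose and 2 fell. The falls were 1 without replicate 2 of Light_28C, replicate 2 or 3 of Light_20C or the 18S-rich library of each group. With each of the 3 other scalings 3 fell.

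Growth genes rose in part. Of 28 expansins and xyloglucan-modifying enzymes, which loosen the cell wall, 12 rose and 1 fell, with a median of 0.47; 7 rose with a constant prior variance. EXPA8 (AT2G40610) stood at 6.59, 6.81 and 6.62 log2 CPM at 28 °C and 4.69, 4.97 and 4.93 at 20 °C, a rise of 1.81 ± 0.12 (limma adjusted p = 2.1e-11). XTH15 (AT4G14130), a xyloglucan-modifying enzyme, stood at 6.07, 6.38 and 7.33 log2 CPM at 28 °C and 4.65, 4.90 and 4.75 at 20 °C, a rise of 1.82 ± 0.19. EXPA17 (AT4G01630) was the member that fell, at 0.12, 1.22 and -3.14 log2 CPM at 28 °C, the last without a read, and 2.26, 3.3 and 2.97 at 20 °C. Of 15 brassinosteroid genes 7 rose and 1 fell, among them the synthesis genes CPD (AT5G05690), by 0.68 ± 0.12, and BR6OX2 (AT3G30180), by 0.92 ± 0.17; 2 rises held with trimmed mean scaling, and without replicate 3 of Light_28C 4 rose. The fall was lost with a constant prior variance and without replicate 3 of Light_28C or replicate 1 or 2 of Light_20C. It was also lost without the 18S-rich library of each group. The brassinosteroid-related growth factors HBI1 (AT2G18300), BEE3 (AT1G73830) and BEE1 (AT1G18400) rose by 0.79 ± 0.12, 1.05 ± 0.22 and 1.17 ± 0.27. Of the 8 tested genes of that list 1 fell, a call lost without replicate 1 of Light_28C or replicate 1 or 2 of Light_20C. The same call was lost without the 18S-rich library of each group. Of 12 gibberellin genes 3 rose (25%) and 0 fell, GA3OX1 (AT1G15550), which makes the active hormone, by 1.05 ± 0.23 and the DELLA repressor genes GAI (AT1G14920) and RGL1 (AT1G66350) by 0.63 ± 0.13 and 0.98 ± 0.27. With library medians subtracted or trimmed mean scaling 3 gibberellin genes rose and 1 fell, and after quantile normalization 2 rose and 1 fell.

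Auxin genes gave a weaker picture. YUC8 (AT4G28720), the auxin synthesis gene best known for its induction by warmth, stood at 3.64, 3.35 and 3.68 log2 CPM at 28 °C and 3.03, 3.23 and 3.02 at 20 °C; the groups did not overlap, but the change of 0.46 ± 0.20 missed the threshold (limma adjusted p = 0.12). TAA1 (AT1G70560), which makes the precursor, was the 1 of 8 synthesis genes that rose, by 0.60 ± 0.18, a call lost under every other scaling and without replicate 3 of Light_28C or replicate 2 or 3 of Light_20C. Of 25 auxin-responsive genes 6 rose and 0 fell, among them IAA29 (AT4G32280), by 1.53 ± 0.30, with its call lost under voom weights, and GH3.3 (AT2G23170), which conjugates auxin, by 1.01 ± 0.18. The median of the list, 0.21, was close to the 0.16 of all genes.

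The remaining lists covered RNA processing, defence hormones, chromatin and development. Of 22 genes for SR splicing factors and glycine-rich RNA-binding proteins 9 rose and 0 fell, and SR45a (AT1G07350), a heat-responsive splicing regulator, stood at 6.36, 6.14 and 6.29 log2 CPM at 28 °C and 4.71, 4.94 and 4.45 at 20 °C (1.56 ± 0.17); 5 of the 9 held with trimmed mean scaling, and without replicate 2 of Light_20C 5 rose. SNC1 (AT4G16890), an immune receptor gene, stood at 5.98, 6.12 and 5.51 log2 CPM at 28 °C and 6.85, 7.08 and 6.91 at 20 °C, a change of -1.08 ± 0.13, and its neighbour and relative AT4G16880 was among the 12 largest falls at -3.18 ± 0.73; reads may be shared within this gene cluster. In the salicylic acid list 1 of 16 rose (6.25%) and 2 fell (12.5%), and in the jasmonate list 0 of 16 rose and 2 fell (12.5%). In the abscisic acid list 1 of 8 rose and 1 fell (12.5% each). Of all tested genes 10.8% rose and 4.8% fell, and these small counts were not tested against those shares. The salicylic acid rise was lost with a constant prior variance, after quantile normalization and without replicate 3 of Light_28C. It was also lost without the 18S-rich library of each group, while without replicate 1 of Light_20C 2 rose. In the salicylic acid list 1 fell without replicate 2 or 3 of Light_28C, replicate 1 or 2 of Light_20C or the 18S-rich library of each group. In the jasmonate list 1 fell with a constant prior variance and without replicate 2 or 3 of Light_28C. INO80 (AT3G57300) and AT3G52250 were the 2 of 10 genes for H2A.Z histones and chromatin remodelling that rose, both lost with each of the 3 other scalings, while ARP6 (AT3G33520), which helps deposit H2A.Z, changed by 0.43 ± 0.19 (limma adjusted p = 0.12) and the H2A.Z gene HTA9 (AT1G52740) by -0.09 ± 0.11. Of 11 cell cycle and DNA replication genes 1 rose (9.09%) and 0 fell. That rise was lost under all 3 other scalings and without replicate 3 of Light_28C or replicate 3 of Light_20C. It was also lost without the 18S-rich library of each group, while 2 rose without replicate 1 of Light_20C. None of 8 stomatal or 5 flowering genes was called by limma (0 and 1 at an unadjusted p under 0.05). With library medians subtracted, quantile normalization or trimmed mean scaling 1 flowering gene fell. FT (AT1G65480) had no read in these 6 libraries. Of 33 tested mitochondrial genes 5 rose and 0 fell. With a constant prior variance, or with the 18S-rich library of each group left out, 2 rose; 3 rose without replicate 1 or 3 of Light_28C or replicate 1 of Light_20C, and 8 without replicate 2 of Light_28C or replicate 3 of Light_20C.

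The other large falls include the channel gene MSL5 (AT3G14810), at -3.21 ± 0.66, the methyltransferase gene AT5G38020 at -3.73 ± 0.81, and NHL12 (AT2G35960), related to immune proteins, at -2.77 ± 0.65. MSL5 stood at 0.86, -3.03 and 1.10 log2 CPM at 28 °C, the second without a read, and 2.99, 2.90 and 2.68 at 20 °C. The calls of AT5G38020 and NHL12 were lost with a constant prior variance, and that of NHL12 also when the 18S-rich library of each group was left out. AT1G36622, AT1G65486 and AT3G44450, given here by ID only, lay between -2.77 and -2.68.

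Under shade fewer genes passed the threshold for the same step in temperature, on values without a scaling factor. With trimmed mean scaling the 2310 rises in white light became 1076, and counts under shade are given here without scaling only. Shade_28C had 467 genes higher and 425 lower than Shade_20C, 2.19% and 1.99% of those tested, from 6 libraries that the comparison in white light does not share. Of the 2310 rises in white light 322 were also rises under shade, and of the 1023 falls 311 were also falls. Passing in 1 light condition only does not show a difference, and the interaction, the response in white light minus that under shade, was called for 95 genes (0.446%), 68 higher and 27 lower in white light; 2101 genes had an unadjusted p under 0.05. Among the 95, 62 had risen and 27 had fallen in white light, and 22 were also called under shade. The split depends on scaling: quantile normalization gave 50 higher and 45 lower, and trimmed mean scaling 57 and 45. With a constant prior variance 6 genes were called, 155 without replicate 1 of Light_28C, 61 without replicate 3 of Shade_28C and 59 without replicate 3 of Shade_20C.

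**Figure D5:**
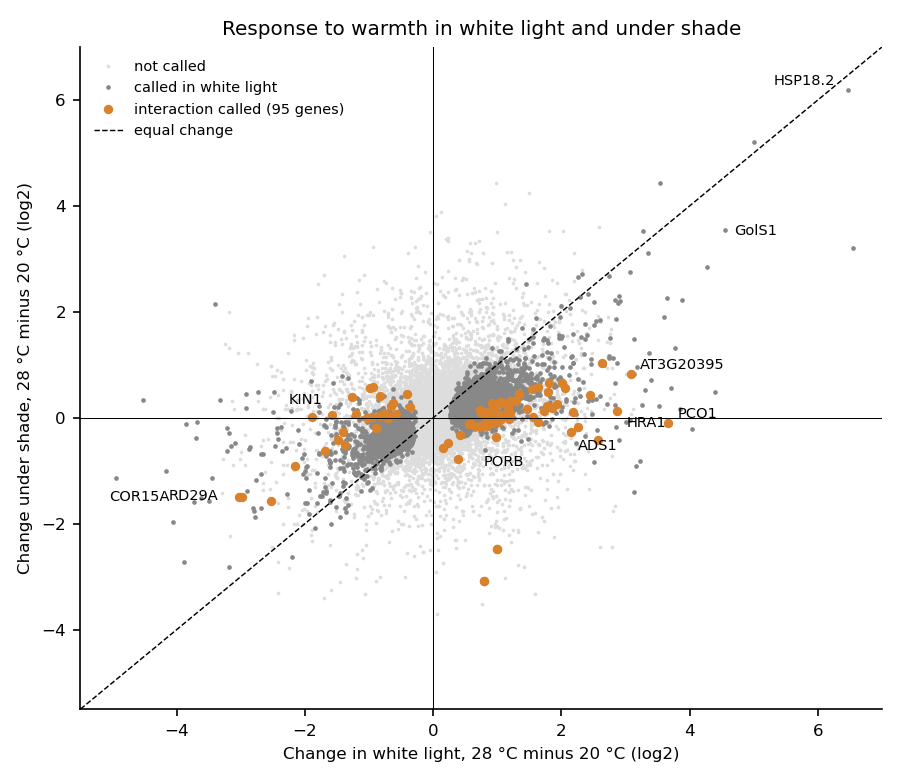
Log2 change with warmth under shade (Shade_28C minus Shade_20C, vertical axis) against that in white light (Light_28C minus Light_20C, horizontal axis) for each tested gene. Orange points are the 95 genes whose responses differed by the interaction test, grey points the other genes called in white light, and the dashed line marks equal change; HSP18.2 lies near that line at 6.46 and 6.18, and PCO1 lies far below it at 3.66 and -0.10.

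Chaperones rose in both lights: under shade 5 small heat shock protein, 13 large chaperone, 6 co-chaperone and 4 ER genes were called higher. HSP18.2 changed by 6.46 ± 0.29 in white light and 6.18 ± 0.29 under shade (interaction 0.28 ± 0.41, limma adjusted p = 0.87), and of the 4 chaperone lists 2 genes passed the interaction test, AT4G21870 and the chloroplast chaperonin CPN60A (AT2G28000), both higher in white light. The AT4G21870 interaction call was lost in 15 of 22 alternatives. Among the cold genes 4 passed the interaction test, all lower in white light. KIN2 changed by -1.57 ± 0.11 in white light and 0.06 ± 0.11 under shade (interaction -1.63 ± 0.16, limma adjusted p = 1.3e-06), and KIN1 by -1.90 ± 0.14 and 0.01 ± 0.14 (-1.91 ± 0.20, limma adjusted p = 5.2e-06); these 2 interaction calls held under every alternative run. RD29A changed by -2.98 ± 0.14 in white light and -1.50 ± 0.14 under shade, and COR413IM1 by -1.48 ± 0.14 and -0.42, the other 2 that passed.

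Of the other 23 genes with a negative interaction, BAM3 stood at -1.53, RVE2 at -1.27, LHCB1.4 at -0.97 and CHS at -0.85. The genes that follow had a positive interaction, which compares responses and not levels: AT5G44440 stood at 8.68, 8.35 and 8.47 log2 CPM in Shade_28C and 8.46, 8.46 and 8.51 in Shade_20C, above all 6 white light libraries. AT5G14920 and GASA6 (AT1G74670), of the gibberellin-regulated family, changed by 1.63 ± 0.14 and 2.0 ± 0.12 in white light and by -0.08 ± 0.14 and 0.66 ± 0.12 under shade. PORB changed by 0.99 ± 0.11 and -0.36 ± 0.11, AT5G44440, of the berberine bridge enzyme family, by 1.56 ± 0.13 and 0.02 ± 0.13, and PI4K GAMMA 7 (AT2G03890), named as a phosphoinositide kinase, by 1.17 ± 0.10 and 0.19 ± 0.10. AT3G20395, a RING finger protein gene, stood at 6.24, 6.47 and 7.11 log2 CPM at 28 °C and 3.87, 2.99 and 3.73 at 20 °C in white light, with changes of 3.08 ± 0.22 in white light and 0.82 ± 0.22 under shade. PCO1, an enzyme that marks transcription factors for breakdown when oxygen is present, stood at 4.3, 4.92 and 5.80 log2 CPM at 28 °C and 2.19, 2.35 and -0.49 at 20 °C in white light, a rise of 3.66 ± 0.48, against -0.10 ± 0.48 under shade (interaction 3.76 ± 0.68, limma adjusted p = 0.0054). HRA1, a factor that restrains the response to low oxygen, rose by 2.86 ± 0.32 in white light, against 0.13 ± 0.32 under shade, and RAP2.3 (AT3G16770), an ethylene response factor of the oxygen-sensing group, by 1.86 ± 0.15, against 0.19 ± 0.15. For the antenna, photosystem and carbon fixation lists 1 gene, LHCB1.4, passed the interaction test, while their median changes were -0.60, -0.46 and -0.48 under shade, against -0.83, -0.81 and -0.72 in white light.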

How the data were processed

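PolyA RNA of whole seedlings was sequenced in 12 libraries of 4 groups. The authors deposited 1 table of voom log2 values. Read as log2 CPM with 0.5 read added and no scaling factor, 100% of the values gave whole reads within 0.001. Totals were 3500325 to 4481869 reads. TopHat2 2.1.1, SAMtools 1.3, limma, R 4.0.2 and TAIR10 are named in the submitters' processing notes; the counter is not given in the sources used here. Column headers reading Amb and Heat were taken as 20 °C and 28 °C. No stranded kit is stated, so overlapping and antisense genes cannot be told apart.

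Genes with a value of at least 0 in 3 libraries were fitted with limma 3.58.1 (R 4.3.3; group means of all 12 libraries, trended prior variance, 8 residual degrees of freedom). Benjamini-Hochberg adjustment ran over all 21316 genes, with the threshold at 0.05. The 12286 untested genes held 0.0520% of reads. The method was tested on simulated data with few changed genes, rises and falls nearly equal in number. That test does not bear on the choice of scaling. Python 3.11.15 and matplotlib 3.10.9 drew the plots. Promoters were the 250 bases before gene starts in RefSeq TAIR10.1, which gave names for 32835 IDs.

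The genes and lists were chosen with earlier results of these data known. Genes named were the 12 largest rises and falls whose mean over the 6 libraries reached 1 on the log2 scale and whose groups did not overlap, the 5 members of each list with the smallest adjusted p plus a few that define a role, and the 10 interaction genes with the smallest adjusted p; any others were chosen after their values were seen. Lists are described by counts and medians, without a set test. Read shares were compared by an exact permutation test. Alternatives changed the scaling, filter, prior variance, weights, added reads, libraries and replicate terms.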

Additional observations from a re-analysis of the deposited data

Results flagged for a closer look

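For 26 named genes the response to warmth differed between white light and shade by the interaction test of limma (adjusted p under 0.05). Each value here is the log2 response in white light minus the log2 response under shade.

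Cold genes were lower by this measure: KIN1 -1.91, KIN2 -1.63, RD29A -1.48 and COR413IM1 -1.06. The starch enzyme gene BAM3 stood at -1.53, the clock gene RVE2 at -1.27, the antenna gene LHCB1.4 at -0.97 and the chalcone synthase gene CHS at -0.85.

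Genes of the low oxygen and ethylene response were higher: PCO1 3.76, HRA1 2.74 and RAP2.3 1.67. The RING finger gene AT3G20395 stood at 2.26 and the desaturase gene ADS1 at 2.42. The cell wall genes EXPA8, EXPA3 and XTH4 stood at 1.16, 0.92 and 0.70, and the gibberellin-regulated genes AT5G14920 and GASA6 at 1.71 and 1.35. AT5G44440 stood at 1.54, PORB at 1.34, BAM9 at 1.0, SEN1 at 0.99, PI4K GAMMA 7 at 0.98, DRM1 at 0.79, and PHYA and AT4G21870 at 0.81 each.

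The KIN1 and KIN2 calls held under all 22 alternatives run, and each of the other 24 was lost with a constant prior variance. The calls of AT4G21870, EXPA3, RVE2 and XTH4 were lost in 15, 13, 11 and 11 alternatives.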

How the results depend on the processing

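For warmth in white light 3333 genes were called, with 1950 under a constant prior variance and 1763 when the library richest in 18S was left out of each group, an alternative chosen after seeing the data; single libraries left out gave 2239 to 2896. The interaction count of 95 was 6 with a constant prior variance and 59 to 155 with single libraries left out. The replicate block gave 3428 and 138 calls; same-numbered libraries did not deviate together (r between -0.030 and 0.041 over 18 pairs), so the numbers were not read as pairs. The other alternatives stayed within 1.5 times of both total counts, and no named gene reversed. The split by direction did move with scaling. Against 2310 rises and 1023 falls, library medians subtracted gave 983 and 1487, quantile normalization 1158 and 1356, and trimmed mean scaling 1076 and 1416. Of 177 named genes called, 24 were lost with a constant prior variance, 14 with library medians subtracted, 21 without the 18S-rich libraries and 0 with the replicate block. The cause of these differences was not tested. Depth limits low genes: the median SE was 0.61 at a mean log2 CPM of 0 to 2, against 0.11 over 6. Near-identical copies and genes with the same reads, 183 of those tested, remain uncertain singly.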

Other observations

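Genes of oxygen sensing, a list chosen after the values were seen, were higher at 28 °C in white light: 8 of 18 tested members rose and 0 fell, with a median log2 change of 0.95. LBD41 (AT3G02550), a factor induced by low oxygen, stood at 5.69, 6.60 and 6.98 log2 CPM at 28 °C and 4.72, 4.06 and 3.70 at 20 °C, a rise of 2.26 ± 0.27. HRA1 stood at 4.82, 5.70 and 5.87 log2 CPM at 28 °C and 2.77, 2.28 and 2.75 at 20 °C. RAP2.2 (AT3G14230), an ethylene response factor, rose by 0.91 ± 0.10, while its relative RAP2.12 (AT1G53910) stood at 8.02, 8.04 and 8.05 log2 CPM at 28 °C and 7.89, 8.11 and 8.14 at 20 °C, with overlap. The fermentation gene ADH1 (AT1G77120) stood at 1.6, 3.04 and 4.54 log2 CPM at 28 °C and 2.05, 2.90 and 1.28 at 20 °C and was not called. Replicate 3 of Light_28C, with the most 18S RNA, was the highest library for LBD41 and HRA1; without the 18S-rich library of each group 8 members rose. The interaction test with the response under shade was passed by 5 members.

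Ethylene signalling genes, also chosen after their values were seen, rose in 7 of 12 cases in white light, and 4 passed the interaction test. The receptor gene ETR2 (AT3G23150) stood at 5.70, 6.52 and 7.01 log2 CPM at 28 °C and 4.05, 4.42 and 4.23 at 20 °C, a rise of 2.18 ± 0.22. EBF1 (AT2G25490) and EBF2 (AT5G25350), which mark the ethylene factor EIN3 for breakdown, rose by 1.04 ± 0.12 and 1.18 ± 0.15, and EIN2 (AT5G03280), the central signalling protein, by 0.85 ± 0.09. EIN3 (AT3G20770) itself changed by 0.22 ± 0.11 (limma adjusted p = 0.18). Replicate 3 of Light_28C was again the highest library for ETR2, EBF1, EBF2 and EIN2. Without the 18S-rich library of each group 6 members of the ethylene list rose.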
